A study of Mus musculus with 147 samples.

Results

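The 9 heat shock chaperone genes described here were followed through mouse male germ cell development: the HSP70 family members Hspa1a, Hspa1b, Hspa1l, Hspa2, Hspa4l, Hspa5 and Hspa8, and the HSP90 genes Hsp90aa1 and Hsp90ab1. They were chosen by name, and all 9 of 9 were found among the 31053 genes of the table of unique molecular identifier (UMI) counts. All samples were wild-type offspring of males homozygous for the Blimp1-mVenus and Stella-ECFP reporters (BVSC) crossed with C57BL/6 females, taken at 28 time-points from embryonic day (E) 6.5 to the adult. The cells of 1 time-point and 1 biological replicate are called a pool here, and there were 61 pools with 11598 cells after filtering. E6.5 and E7.5 cells were not gated, cells of E8.5 to E10.5 came from digested whole embryos, and cells of E11.5 to E18.5 from male gonads. Per the study, males were selected by PCR for the Sry gene at E10.5 and E11.5, and no selection is described for earlier days. Part of the E10.5 cells carry None and not Male in their names. From E8.5 germ cells were sorted by the BVSC signals, from E14.5 by Stella-ECFP alone, and reporter-negative gonadal cells (Negative gate) were sorted beside them. After birth, cells were picked at random among those with germ cell morphology, and labels of DNA content divide most cells of postnatal day (PND) 30 into 1N, 2N and 4N gates and part of those of PND14 into 2N and 4N. No animal received a treatment or heat.

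HSP70 proteins bind unfolded stretches of other proteins and release them in a cycle driven by ATP, with DNAJ proteins loading clients and exchange factors such as the BAG proteins resetting the cycle. HSP90 takes over partly folded clients, among them kinases and steroid receptors, together with partners such as Cdc37, Ptges3 and the FKBP proteins. In most cells Hspa8 and Hsp90ab1 are the constitutive cytosolic genes, Hspa1a and Hspa1b are the classical genes switched on by heat through the factor HSF1, and Hspa5 serves the endoplasmic reticulum. Hspa2 is known from spermatocytes, where it is needed to complete meiosis, Hspa1l is known from spermatids, and Hspa4l is an HSP110-type relative that acts as an exchange factor and is abundant in testis.

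The promoters of 4 members are shown because these genes lie at the extremes of the patterns described below: a heat-inducible pair, their testis neighbour and the spermatocyte gene. Each sequence runs from 250 bases before to 50 bases after the transcript start, 5′ to 3′ on the strand of the gene, taken from RefSeq (build GRCm38.p6). Capitals mark matches on either strand to any of the 4 motifs searched, which were the heat shock element (GAANNTTC or TTCNNGAA), the TATA box as TATAAA, the box bound by the factor NFY as CCAAT, and the start of the cAMP response element as TGACG. Hspa1a lies at chr17:34972107-34972406 (minus strand), Hspa1b at chr17:34959189-34959488 (minus strand), Hspa1l at chr17:34972453-34972752 (plus strand) and Hspa2 at chr12:76404120-76404419 (plus strand).
Hspa1a: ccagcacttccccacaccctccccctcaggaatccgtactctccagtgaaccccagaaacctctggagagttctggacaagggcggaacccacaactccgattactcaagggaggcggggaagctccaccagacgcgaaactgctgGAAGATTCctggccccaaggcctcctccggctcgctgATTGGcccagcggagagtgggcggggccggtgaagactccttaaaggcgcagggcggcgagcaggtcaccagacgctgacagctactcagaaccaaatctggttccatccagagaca
Hspa1b: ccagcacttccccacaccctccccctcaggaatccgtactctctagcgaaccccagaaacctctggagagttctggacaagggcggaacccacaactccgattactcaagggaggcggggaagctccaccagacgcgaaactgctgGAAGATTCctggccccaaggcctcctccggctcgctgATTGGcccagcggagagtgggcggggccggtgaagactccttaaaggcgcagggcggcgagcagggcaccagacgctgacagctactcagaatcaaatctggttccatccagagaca
Hspa1l: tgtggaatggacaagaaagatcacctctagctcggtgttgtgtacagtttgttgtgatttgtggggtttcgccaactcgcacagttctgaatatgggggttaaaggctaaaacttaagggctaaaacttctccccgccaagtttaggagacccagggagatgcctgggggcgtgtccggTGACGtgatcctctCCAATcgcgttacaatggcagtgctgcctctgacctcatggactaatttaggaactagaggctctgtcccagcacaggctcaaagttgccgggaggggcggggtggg
Hspa2: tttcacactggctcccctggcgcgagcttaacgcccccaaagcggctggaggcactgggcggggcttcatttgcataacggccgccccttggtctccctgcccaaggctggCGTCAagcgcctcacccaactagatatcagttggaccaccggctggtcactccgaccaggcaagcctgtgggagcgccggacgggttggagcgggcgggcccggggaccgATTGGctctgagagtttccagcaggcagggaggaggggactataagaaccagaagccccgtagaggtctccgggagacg
The Hspa1a and Hspa1b windows were identical at 296 of 300 bases, and each held 1 heat shock element beginning at -104 from the start and 1 CCAAT at -67. Hspa1l starts 546 bases from Hspa1a on the other strand, and its window held CCAAT at -57 and TGACG at -71 but no match to the heat shock element. The Hspa2 window held CCAAT at -29 and TGACG at -139. Promoters of 6 of the 9 members were in the RefSeq table. The Hspa5 window (chr2:34771840-34772139, plus strand) held CCAAT 4 times, at -214, -186, -98 and -65, and TGACG at -157, and the Hspa4l window (chr3:40745363-40745662, plus strand) held TGACG at -247. Of 32851 promoters of the same length, 15.1% held the heat shock element, 37.4% held CCAAT, 3.37% held CCAAT 3 or more times, 20.8% held TGACG and 13.6% held TATAAA, which none of the 6 had. A match is a run of letters and not a measured binding site.

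Hspa1a and Hspa1b have 1 exon each and lie 9951 bases apart on chromosome 17. Of the 100-base windows of the Hspa1a transcript, 47.1% also occur in Hspa1b, but none of the 401 windows in the last 500 bases, from which the 3′ enriched libraries mostly read, occurs in another transcript. The same holds for every other member except Hspa8, where 318 of 401 windows (79.3%) also occur in processed pseudogenes such as Gm15459. The study counted uniquely aligned reads, so reads that matched Hspa8 and a copy equally may have gone uncounted. Hspa1a overlaps Gm20481 over 2225 bases and Hspa1l overlaps Gm10501 over 2387 bases, both on the opposite strand. Whether the counting used strand is not given in the sources used here, so these pairs cannot be told apart.

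UMI totals were 15163519 to 197524235 per pool, with a median of 284518 UMIs per cell. Levels are counts scaled to 1000000 UMIs (CPM) of the summed cells of a pool, for sums of at least 10 cells, and a level is compared here only within 1 gene. Since cells are not replicates, tests were run across pools. Per the study, pools up to E18.5 combined several embryos or gonads and each later pool came from a single gonad. The p-values thus measure the spread between such pools, which edgeR moderates over all genes. Clusters were built without the 9 genes and named from marker lists as germ-like (up to spermatogonia), spermatocyte-like, round spermatid-like and somatic-like. Cluster 9 of PND30 to adult held high levels of both spermatocyte and round spermatid markers and keeps its number. By cluster the BVSC and Negative gates of E11.5 to E18.5 held mostly the named cells, with 1 exception. The DNA content gates of PND30 were mixtures of classes, given below. In all, 1242 of 1331 BVSC cells of E11.5 to E18.5 were germ-like and 558 of 572 Negative cells were somatic-like. Of the 72 BVSC cells of E17.5 replicate 1, none was in a cluster named germ-like. Among them, 47 were in the unnamed cluster 23, led by S100a8 and S100a9. That cluster still held 3176 CPM of germ cell markers, with 12 of them detected, beside 2955 CPM in the germ-like cluster 22. E17.5 replicate 1, and E8.5 replicates 1 and 3, gave no germ cell level. Leydig cell markers summed to 372 CPM in the BVSC cells of E17.5 replicate 1, and also to 977 in E18.5 replicate 2 and 491 in E16.5 replicate 1, with 2.85 to 129.96 in the other 13 fetal pools.

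**Figure D1:**
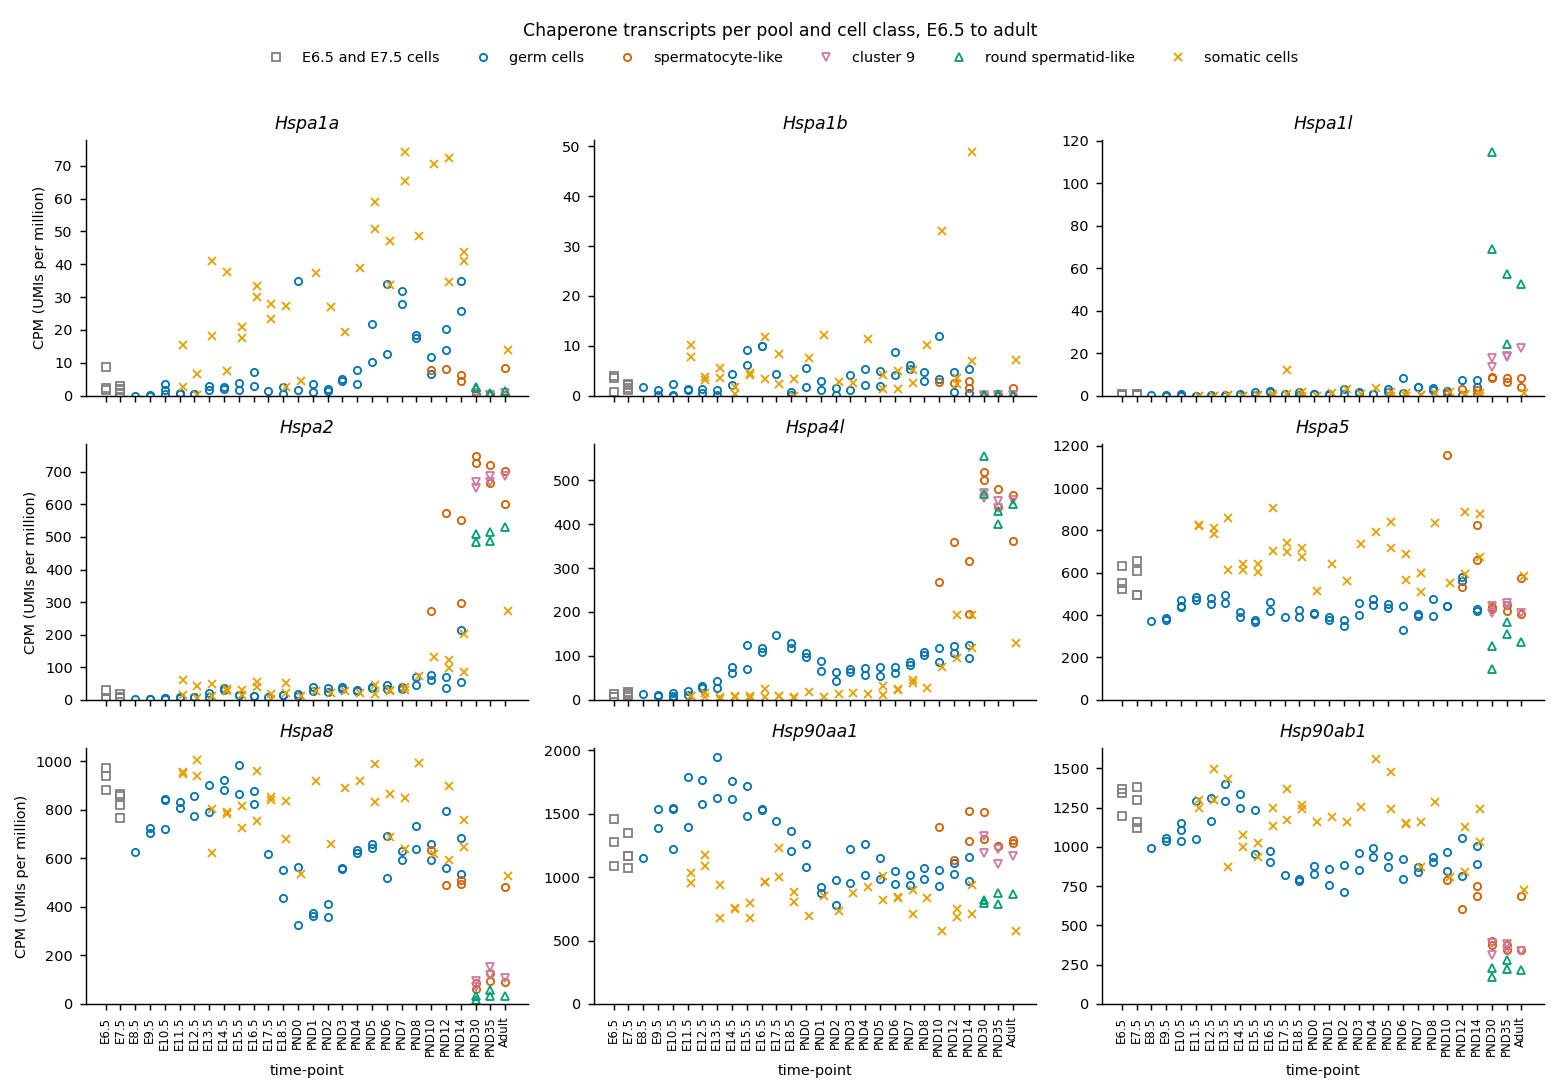
CPM of each of the 9 genes (vertical axes, own scale for each panel) against time-point (horizontal axis), 1 symbol per pool and cell class. Grey squares are E6.5 and E7.5 cells, blue circles germ-like cells, orange circles spermatocyte-like cells, pink triangles pointing down cluster 9, green triangles round spermatid-like cells and yellow crosses somatic cells. Hspa2 and Hspa4l stand highest in the meiotic and later classes, Hspa1l highest in round spermatid-like cells, and Hspa8 and Hsp90ab1 lowest there.

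Among the genes known from testis, Hspa2 was lowest in the earliest germ cells and highest in the meiotic classes. Its level was 3.12 ± 1.73 CPM (mean ± SD, n = 6 pools) at E8.5 to E10.5, 9.93 ± 5.84 (n = 6) at E11.5 to E13.5, 19.9 ± 10.4 (n = 6) at E14.5 to E16.5 and 42.5 ± 11.51 (n = 8) at PND5 to PND8. It stood at 424 ± 161 (n = 4) in spermatocyte-like cells of PND10 to PND14, at 694 ± 53.03 (n = 6) in those of PND30 to adult, at 672 ± 15.6 (n = 5) in cluster 9 and at 506 ± 19.3 (n = 5) in round spermatid-like cells. Of the spermatocyte-like cells of PND14, 175 carried the 4N label, 97 the 2N label and 262 none. The ranges of neighbouring stages overlapped up to spermatogonia, whereas every spermatocyte-like pool lay above every germ-like and somatic pool of PND10 to PND14, and every cluster 9 pool above every round spermatid-like pool.

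Hspa4l was already abundant in fetal germ cells. It was at 9.88 ± 3.73 CPM (n = 6) at E8.5 to E10.5, 26.3 ± 10.3 (n = 6) at E11.5 to E13.5, 92.97 ± 26.9 (n = 6) at E14.5 to E16.5 and 107.5 ± 26.97 (n = 7) at E17.5 to PND1. After 61.2 ± 10.6 (n = 6) at PND2 to PND4 and 108.8 ± 16.1 (n = 6) at PND10 to PND14, spermatocyte-like cells held 285 ± 70.1 (n = 4) at PND10 to PND14 and 461 ± 55.6 (n = 6) later. Cluster 9, with 455 ± 12.6 (n = 5), and round spermatid-like cells, with 459.8 ± 58.6 (n = 5), overlapped with the late spermatocyte-like pools. Fetal to PND8 somatic pools ranged from 2.04 to 45.6 CPM.

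Hspa1l, whose start lies beside that of Hspa1a, was the latest. Germ cells of E11.5 to E13.5 held 0.0414 ± 0.0517 CPM (n = 6), at the level of a few UMIs per pool, and the highest mean up to PND14 in any class was 3.86. Spermatocyte-like cells of PND30 to adult held 7.40 ± 1.70 (n = 6), cluster 9 held 18.1 ± 3.08 (n = 5) and round spermatid-like cells 63.6 ± 32.9 (n = 5). These 3 ranges did not overlap (4.26 to 8.76, 13.7 to 22.3 and 24.5 to 114.7 CPM). Within the round spermatid-like clusters the mean level ran from 17.48 CPM in cluster 7 through 80.7 in cluster 33 to 221 in cluster 32.

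The constitutive cytosolic genes went the other way. Hspa8 was at 743 ± 84.6 CPM (n = 6) at E8.5 to E10.5, 891 ± 55.2 (n = 6) at E14.5 to E16.5, 462 ± 115.7 (n = 7) at E17.5 to PND1 and 637 ± 63.9 (n = 8) at PND5 to PND8. Spermatocyte-like cells held 533 ± 68.5 (n = 4) at PND10 to PND14, and cluster 9 and round spermatid-like cells held 108.2 ± 29.7 (n = 5) and 33.5 ± 15.1 (n = 5). In the spermatocyte-like cells of PND30 to adult 1 pool decided the mean: Adult replicate 1 stood at 479 CPM and the median of the other pools was 91.8.

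Hsp90ab1 showed a like order, from 1253 ± 123.1 CPM (n = 6) at E11.5 to E13.5 through 817 ± 42.9 (n = 7) at E17.5 to PND1 and 421 ± 131.96 (n = 6) in late spermatocyte-like cells to 223 ± 38.4 (n = 5) in round spermatid-like cells. Hsp90aa1, the stress-responsive cytosolic HSP90 gene, stayed within a narrower range. It was at 1684 ± 192 CPM (n = 6) at E11.5 to E13.5, 1019 ± 71.7 (n = 8) at PND5 to PND8, 1312 ± 102.1 (n = 6) in late spermatocyte-like cells and 829 ± 38.4 (n = 5) in round spermatid-like cells. For Hspa8 and Hsp90ab1 every cluster 9 pool lay above every round spermatid-like pool.

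Hspa5, which encodes the endoplasmic reticulum chaperone BiP, varied little up to spermatogonia, with germ cell means of 397.8 to 479 CPM by period against 664 to 785 in somatic cells. Spermatocyte-like cells of PND10 to PND14 held 794 ± 270 CPM (n = 4), those of PND30 to adult 452 ± 62.6 (n = 6) and round spermatid-like cells 269.8 ± 81.6 (n = 5). Cluster 20, made mostly of PND14 cells, had 929 CPM, and the round spermatid-like clusters 32 and 33 had 77.4 and 81.2 CPM.

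The heat-inducible pair was sparse. Hspa1a was at 1.10 ± 0.947 CPM (n = 6) in germ cells of E11.5 to E13.5, 3.37 ± 1.97 (n = 6) at E14.5 to E16.5, 4.05 ± 2.26 (n = 6) at PND2 to PND4 and 21.7 ± 8.72 (n = 8) at PND5 to PND8. Somatic cells held 14.1 ± 14.9 (n = 6) at E11.5 to E13.5 and 54.1 ± 13.2 (n = 7) at PND5 to PND8, where the lowest somatic pool (33.85) was just below the highest germ cell pool (33.86). Hspa1b had its highest germ cell mean at E14.5 to E16.5, with 6.96 ± 3.30 CPM (n = 6), and was at 0.163 ± 0.0579 (n = 5) in round spermatid-like cells, near the level of a few UMIs. Before gating by reporter, at E6.5 and E7.5, the pair held 4.23 ± 3.796 (n = 3) and 1.88 ± 0.795 (n = 4) CPM for Hspa1a and 2.74 ± 1.68 (n = 3) and 1.79 ± 0.6001 (n = 4) for Hspa1b.

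At those 2 earliest days Hspa2 held 11.48 ± 15.9 and 10.4 ± 5.97 CPM, Hspa4l 8.33 ± 3.7999 and 12.4 ± 4.97, Hspa5 568 ± 55.7 and 563 ± 80.6 and Hspa1l 0.398 ± 0.456 and 0.506 ± 0.403. Hspa8 held 931 ± 45.9 and 826 ± 45.8, Hsp90aa1 1277 ± 186 and 1189 ± 115.8, and Hsp90ab1 1302 ± 90.7 and 1241 ± 122.6 (n = 3 at E6.5 and 4 at E7.5 for each). For Hspa2 the spread at E6.5 came from replicate 2, at 29.8 CPM.

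The first comparison asked how the germ cells of the fetal gonad differed from their somatic neighbours, with the BVSC and Negative sums of each of 16 pools of E11.5 to E18.5 paired. Of the members 2 were higher in germ cells, 3 were lower, 3 did not pass the test, and Hspa1l had too few counts to be tested. Of all 15231 genes tested 61.1% passed, 34.5% as higher and 26.6% as lower, so that 5 of 8 is close to the background. Germ cells had a median of 72.1 CPM of Hspa4l over the 16 pools (lowest 11.9, highest 147.2), and Negative cells 8.48 (3.26 to 31.4). The germ cell value was the higher in all 16 pools, by 2.55 ± 0.31 on the log2 scale (fold change ± SE from edgeR, 5.87-fold, adjusted p = 7.75e-07). Hsp90aa1 was also higher in 16 of 16 pools, with a median of 1555 CPM (1203 to 1935) against 959 (675 to 1233) and a log2 difference of 0.66 ± 0.12 (adjusted p = 6.35e-05).

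Hspa5 was lower in germ cells in all 16 pools, with a median of 433 CPM (368 to 498) against 696 (602 to 905), and here the groups did not overlap at all (log2 difference -0.82 ± 0.09, adjusted p = 1.33e-07). Hspa1a was lower in 15 of 16 pools, with a median of 2.32 CPM (0.409 to 10.2) against 18.3 (0.341 to 40.95) and a log2 difference of -2.74 ± 0.33 (adjusted p = 7.93e-07). Beside it, 20 immediate early genes known to be induced when tissue is dissociated summed to 357 to 943 CPM in BVSC and 1927 to 9340 CPM in Negative cells, and all 19 tested were lower in germ cells (median log2 difference -3.56). Their part in the Hspa1a result was not tested. Hspa2 was lower in 11 of 16 pools, with a median of 12.8 CPM (4.85 to 36.4) against 28.2 (3.37 to 59.5) and overlapping groups (-1.05 ± 0.36, adjusted p = 0.0149).

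The members that did not pass were Hspa8 (log2 difference -0.17 ± 0.12, adjusted p = 0.210, lower in 9 of 16 pools), Hsp90ab1 (-0.22 ± 0.13, adjusted p = 0.140, lower in 11 of 16) and Hspa1b (-0.77 ± 0.63, adjusted p = 0.298, lower in 8 of 16). Without E17.5 replicate 1, whose BVSC cells lay outside the clusters named germ-like, the Hspa2 difference was -1.22 with adjusted p = 0.00272. No other member changed its call without this pool. The BVSC sum of E17.5 replicate 1 held 2621 CPM of germ cell markers, below the 2660 to 5165 of the other pools and above the 79.02 to 659 of Negative cells.

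**Figure D2:**
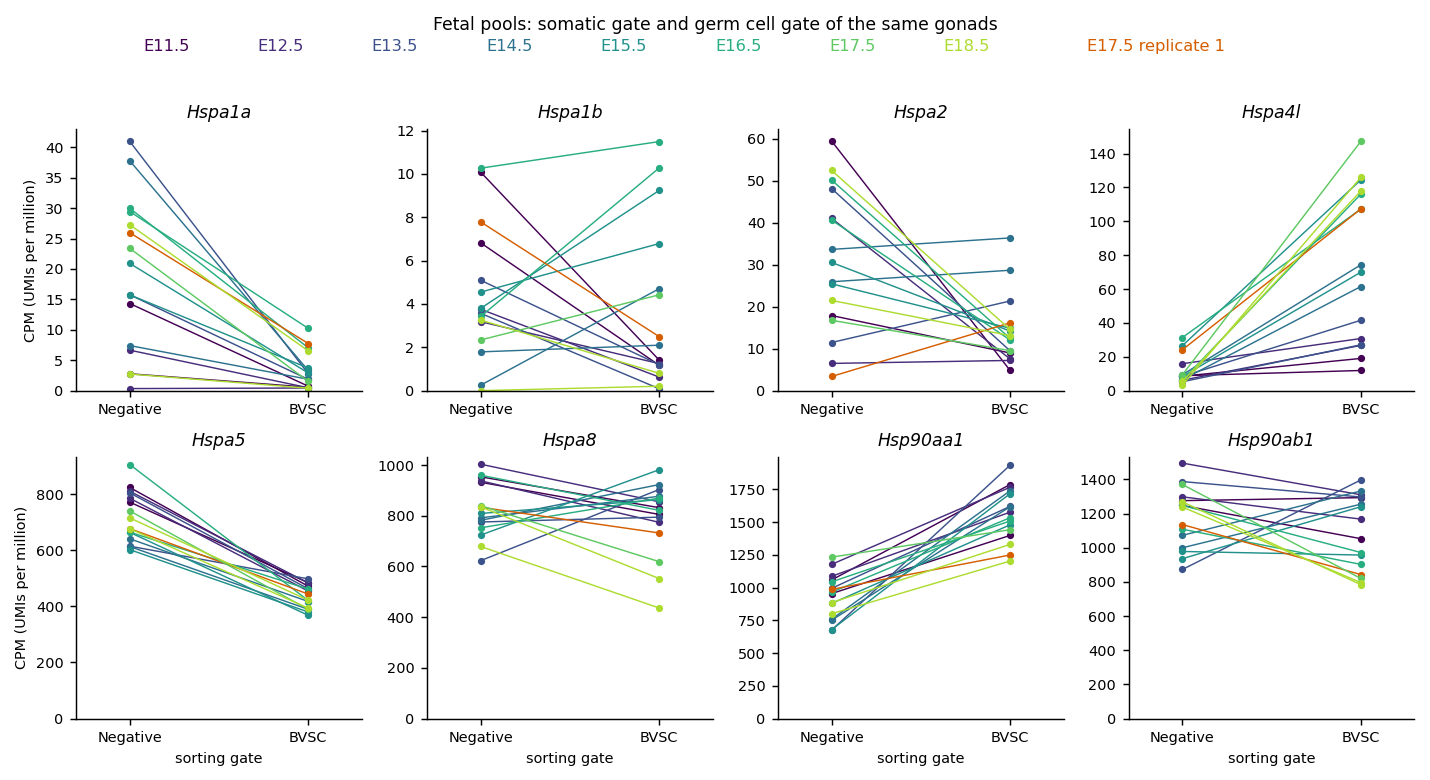
CPM of 8 of the genes (vertical axes) in Negative and BVSC cells (horizontal axis) of E11.5 to E18.5, with a line joining the 2 sums of each of the 16 pools. Lines are coloured by embryonic day, and E17.5 replicate 1 is drawn in orange. Every line rises for Hspa4l and Hsp90aa1 and every line falls for Hspa5, while lines cross for Hspa1b, Hspa2, Hspa8 and Hsp90ab1.

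The other chaperone lists were read in the same comparison. Of the 22 endoplasmic reticulum stress genes tested, 15 were lower in germ cells and 3 higher (median log2 difference -0.63 against 0.17 over all genes), among them Xbp1, a transcription factor of the unfolded protein response (-2.03 ± 0.16, adjusted p = 4.85e-09), and Herpud1, which serves degradation from this compartment (-1.95 ± 0.32, adjusted p = 2.54e-05). Chaperonins, the ring-shaped folding machines, were higher for 7 and lower for 1 of 10, with Cct2 at 1.08 ± 0.10. HSP90 partners were higher for 8 and lower for 3 of 18, with the germ cell gene Fkbp6 at 3.64 ± 0.34 and Tomm34 at 1.72 ± 0.17. The HSP90 relatives parted, with the mitochondrial Trap1 at 1.55 ± 0.14 and the endoplasmic reticulum gene Hsp90b1 at -0.73 ± 0.12.

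The exchange factors and partners of HSP70 were higher for 4 and lower for 3 of 10, with Hspbp1 at 1.18 ± 0.10 and Stip1, which bridges HSP70 and HSP90, at 1.14 ± 0.11. Relatives of HSP70 and HSP110 were higher for 4 and lower for 3 of 8, led by Hsph1 (1.67 ± 0.17) and Hspa4 (1.21 ± 0.13), both of the HSP110 group to which Hspa4l belongs. DNAJ genes were higher for 7 and lower for 4 of 17, heat shock factors higher for 2 and lower for 1 of 4 (Hsf2 1.12 ± 0.17), and small heat shock proteins lower for 4 of 6 and higher for 0 (Hspb1 -2.36 ± 0.29).

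Whether the germ to somatic difference itself changed with fetal age was tested on the same sums, as E14.5 to E18.5 against E11.5 to E13.5. The later germ cells were sorted by Stella-ECFP alone, so that gate and age cannot be told apart here. Only Hspa1b passed among the 9 members, all tested, where 19.9% of 19952 genes passed (8.86% as higher and 11.1% as lower). In BVSC cells it was at 0.0897 to 1.41 CPM in the 6 earlier pools and 0.204 to 11.49 in the 10 later ones, and in Negative cells at 3.18 to 10.1 and 0 to 10.3. The change was 2.89 ± 1.01 on the log2 scale (edgeR, adjusted p = 0.0475), and it was no longer called without any 1 of 12 of the 16 pools. Hspa4l had a change of 1.29 ± 0.49 with adjusted p = 0.0645, and 1.35 with adjusted p = 0.0472 without E17.5 replicate 1.
The other 7 members had changes of 1.31 (Hspa1l), 0.25 (Hspa2), 0.20 (Hspa1a), -0.49 (Hspa8), -0.49 (Hsp90aa1), -0.52 (Hspa5) and -0.67 (Hsp90ab1), with adjusted p between 0.0798 and 0.990. Scaling moved the split of all called genes, from 1768 higher and 2211 lower to 2505 and 1074 without TMM factors, 2339 and 1192 with upper-quartile scaling, 4355 and 1824 with DESeq2 and 5408 and 1566 with limma, and Hspa4l was called in each of these.

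Germ cells that had reached the gonad (BVSC, E11.5 and E12.5) were then set against migrating ones (BVSC, E9.5 and E10.5). The study describes no selection of males at E9.5, so sex may differ between these groups, and its part was not tested. Of the 8 members tested, Hspa4l alone passed, where 9.48% of 14849 genes passed (4.09% as higher and 5.39% as lower). Its level was 11.4 and 8.55 CPM in the E9.5 pools, 4.11, 14.52 and 7.93 at E10.5, 19.03 and 11.9 at E11.5 and 26.7 and 30.8 at E12.5. E11.5 replicate 2 lay within the migrating range and the other gonadal pools above it (log2 difference 1.25 ± 0.35, edgeR adjusted p = 0.0377). The call was lost without any 1 of 7 of the 9 pools. Over all genes 607 were higher and 800 lower, and 444 and 1043 with upper-quartile scaling.
The differences of the others were 0.76 ± 0.45 for Hspa2, -1.35 ± 1.02 for Hspa1a, 0.50 ± 1.10 for Hspa1b, 0.13 for Hspa5, 0.09 for Hspa8, 0.18 for Hsp90aa1 and 0.16 for Hsp90ab1, with adjusted p of 0.196 or more, and Hspa1l was not tested.

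The third comparison followed the entry into mitotic arrest, with BVSC cells of E15.5 and E16.5 against those of E11.5 and E12.5, the same gonadal pools as above. Per the study, the later cells were sorted by Stella-ECFP alone, so that gate and stage cannot be told apart here. Hspa4l and the heat-inducible pair rose, Hspa5 and both HSP90 genes fell, and Hspa8 and Hspa2 did not pass, where 56.9% of 17051 genes passed, 32.6% as higher and 24.3% as lower. Hspa4l went from 19.03, 11.9, 26.7 and 30.8 CPM to 124.5, 69.97, 107.2 and 116.04 CPM, with no overlap (1.94 ± 0.28, edgeR adjusted p = 2.03e-04). Hspa1b went from 1.17, 1.41, 0.628 and 1.25 CPM to 9.24, 6.79, 11.49 and 10.3 CPM (2.77 ± 0.49, adjusted p = 6.76e-04), and Hspa1a from 0.727, 0.565, 0.435 and 0.468 CPM to 3.71, 2.90, 10.2 and 7.04 CPM (3.11 ± 0.64, adjusted p = 0.00167). In E16.5 replicate 1, a single BVSC cell outside the germ-like clusters held 161 of the 228 Hspa1a UMIs. Among germ-like cells alone the 4 later pools held 3.71, 1.79, 3.06 and 7.11 CPM of Hspa1a and 9.24, 6.13, 10.1 and 9.89 CPM of Hspa1b, and both rises were still called (2.50 with adjusted p = 0.00806 and 2.68 with adjusted p = 9.20e-04).
Neither gene of this pair overlapped between the groups, although the early counts were small. The share of all genes without overlap between these groups was not counted. In germ-like cells Hspa1a had 9 to 18 UMIs in 2 to 4 cells of each early pool, and 43 to 174 UMIs in 13 to 37 cells of each later pool, where the 5 highest cells held 40.8 to 81.4% of them. Hspa1b had UMIs in 35 to 48 germ-like cells of each later pool, with 45.9 to 72.0% in the 5 highest.

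Markers of other cell types, which were not tested, were also higher in the later BVSC sums. Leydig cell markers went from 2.85 to 24.7 CPM in the early pools to 19.8 to 491 in the later ones, with 5 of 5 higher in the mean, interstitial and peritubular markers from 3.76 to 18.3 to 20.1 to 145.6 (8 of 9), and endothelial markers from 38.5 to 47.9 to 51.3 to 175.9 (4 of 4). Sertoli cell markers summed to 623 to 697 and 320.2 to 534, with 7 of 9 higher in the mean, and blood markers to 14.05 to 77.3 and 50.8 to 195 (7 of 10). None of these markers was at 0 in all pools of a group. The Negative cells of E15.5 and E16.5 held 15.7 to 29.97 CPM of Hspa1a and 3.42 to 10.3 of Hspa1b. Beyond the values of germ-like cells given above, the part of these other cells in the changes was not tested.

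The falls were small and depended on scaling. Hspa5 went from 484, 471, 483 and 454 CPM to 368, 379.5, 461 and 420.5 CPM (-0.51 ± 0.11, adjusted p = 0.00262), with E16.5 replicate 1 above the lowest early pool. Hsp90ab1 changed by -0.52 ± 0.15 (adjusted p = 0.0120) and Hsp90aa1 by -0.35 ± 0.12 (adjusted p = 0.0311), both with overlapping CPM. The TMM scaling factors shifted all genes by -0.30 on the log2 scale between these groups, and without them none of the 3 falls was called (-0.21, -0.24 and -0.06 for Hspa5, Hsp90ab1 and Hsp90aa1), and 6676 genes were higher and 3104 lower instead of 5557 and 4141. The split was 6825 and 2955 with upper-quartile scaling and 7217 and 3314 with limma, where the 3 falls were not called either. The rises of Hspa4l, Hspa1a and Hspa1b were called under all of these.
Hspa2 changed by 0.63 ± 0.34 (adjusted p = 0.138), and was called higher with upper-quartile scaling (0.96), without TMM factors (0.91), with limma (0.88, adjusted p = 0.0160) and with DESeq2 (0.72). Hspa8 changed by -0.17 ± 0.12 (adjusted p = 0.256), and Hspa1l was not tested.

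Beside the members, 8 of 18 HSP90 partners were lower and 4 higher in the arrested cells (median log2 difference -0.51 against 0.25 over all genes), with Ppp5c at -1.62 ± 0.21. Endoplasmic reticulum genes were lower for 9 and higher for 6 of 22. Clgn, a calnexin relative of the male germ line, was at 4.38 ± 0.40, and Manf, a secreted stress factor, at -2.15 ± 0.30. Relatives of HSP70 were lower for 4 and higher for 1 of 8, with Hspa14 at -1.87 ± 0.22 and Hyou1 at -1.84 ± 0.24. The immediate early genes were lower for 3 and higher for 4 of 20, with Ier2 at -3.63 ± 0.34. Their part in the changes of Hspa1a and Hspa1b was not tested.

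**Figure D3:**
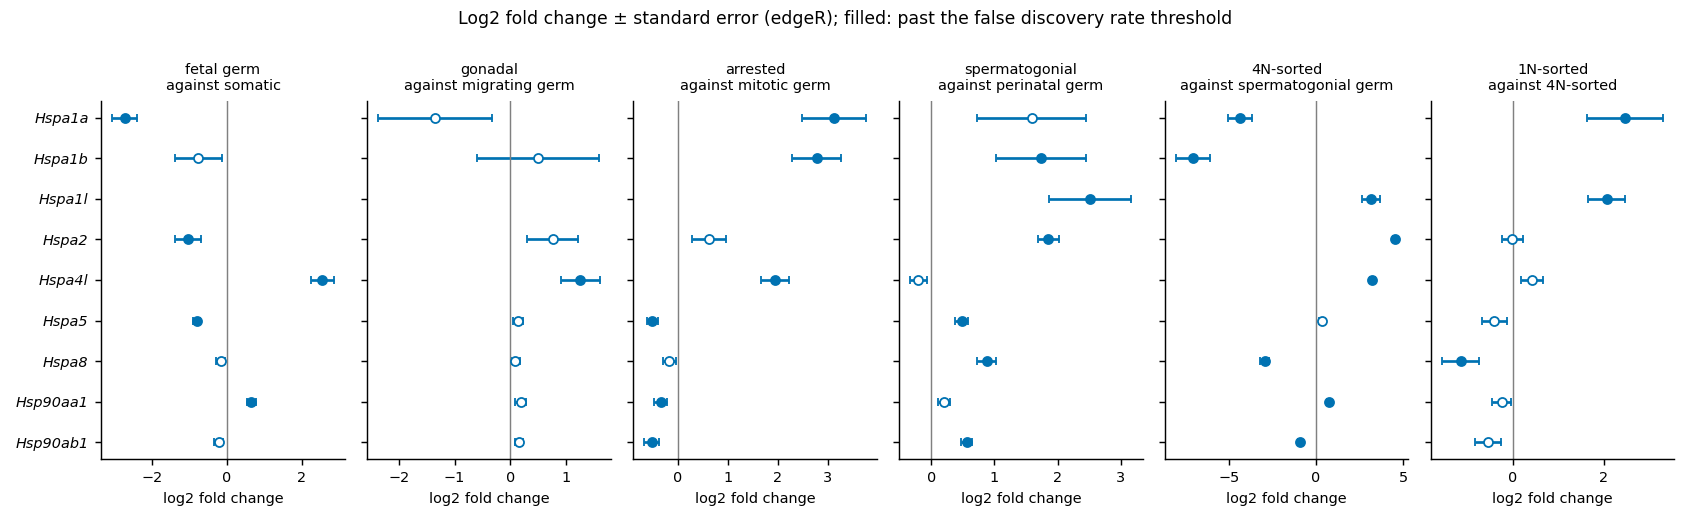
Log2 fold changes (horizontal axes, own scale for each panel) of the members (vertical axes) in 6 comparisons, with bars of 1 SE and filled symbols where the adjusted p passed 0.05. Hspa4l and Hspa2 lie farthest to the right and Hspa8 and Hspa1a far to the left in the panel of 4N cells against spermatogonial cells, where the point of Hspa1b depends on the prior count since its 4N sums held 3 and 0 UMIs.

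The spermatogonial stage (germ-like cells of PND5 to PND7, 6 pools) was compared with the perinatal one (germ-like cells of E18.5 and PND0, 4 pools). Per the study, the E18.5 cells were sorted by Stella-ECFP, whereas those of PND0 and PND5 to PND7 were picked by morphology. Collection and stage can thus not be fully told apart here. Of the 9 members 6 rose, none fell and 3 did not pass, where 68.1% of 21236 genes passed, 30.5% as higher and 37.6% as lower. Hspa2 went from 13.1, 14.3, 18.01 and 12.6 CPM to a median of 36.5 CPM (34.2 to 45.8) with no overlap (1.85 ± 0.17, edgeR adjusted p = 4.19e-07). Hspa8 went from 552, 435, 324 and 564 CPM to a median of 637 CPM (517 to 691), with the lowest later pool below 2 of the earlier ones (0.87 ± 0.15, adjusted p = 1.72e-04). Hsp90ab1, Hspa5 and Hspa1l changed by 0.56 ± 0.09 (adjusted p = 5.61e-05), 0.48 ± 0.10 (9.14e-04) and 2.52 ± 0.65 (0.00340).

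Scaling mattered here. The TMM factors shifted all genes by 0.47, and the split of 6478 higher and 7978 lower genes became 3987 and 10174 without them, 4478 and 9717 with upper-quartile scaling and 4154 and 10952 with limma. In CPM, Hspa5 lay at 393 to 426 before and 330.3 to 453 after, and Hsp90ab1 at 784 to 880.0 and 797 to 944. Without the factors Hspa2 (1.38) and Hspa8 (0.41, adjusted p = 0.0146) were still called higher, while Hspa5 (0.01), Hsp90ab1 (0.09) and Hspa1b (1.32, adjusted p = 0.112) were not. Hsp90aa1, at 0.20 ± 0.10 (adjusted p = 0.0857), turned to -0.28 (adjusted p = 0.00391), and Hspa4l, at -0.20 ± 0.13 (adjusted p = 0.182), was called lower.

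Hspa1a illustrates how 1 pool can set a result. Perinatal germ cells held 0.409 and 2.67 CPM at E18.5, 1.75 in PND0 replicate 1 and 35.05 in PND0 replicate 2, and the spermatogonial pools 21.8, 10.2, 33.9, 12.6, 27.8 and 31.8 CPM. Only PND0 replicate 2 overlapped with the later pools, and the difference was 1.59 ± 0.86 (adjusted p = 0.117) with it and 4.30, past the threshold, without it. That pool held 1894 UMIs of Hspa1a in 187 cells, the 5 highest cells held 25.3% of them, and its libraries stood at 28.01 and 43.1 CPM against 1.15 and 2.27 in replicate 1. The immediate early genes summed to 470 CPM there and to 678 in replicate 1. Hspa1b was called higher (1.74 ± 0.71, adjusted p = 0.0419), but not without any 1 of 7 of the 10 pools, nor with upper-quartile scaling (adjusted p = 0.106), no filter on genes (0.0515) or the replicate number as a block (0.0554).

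**Figure D4:**
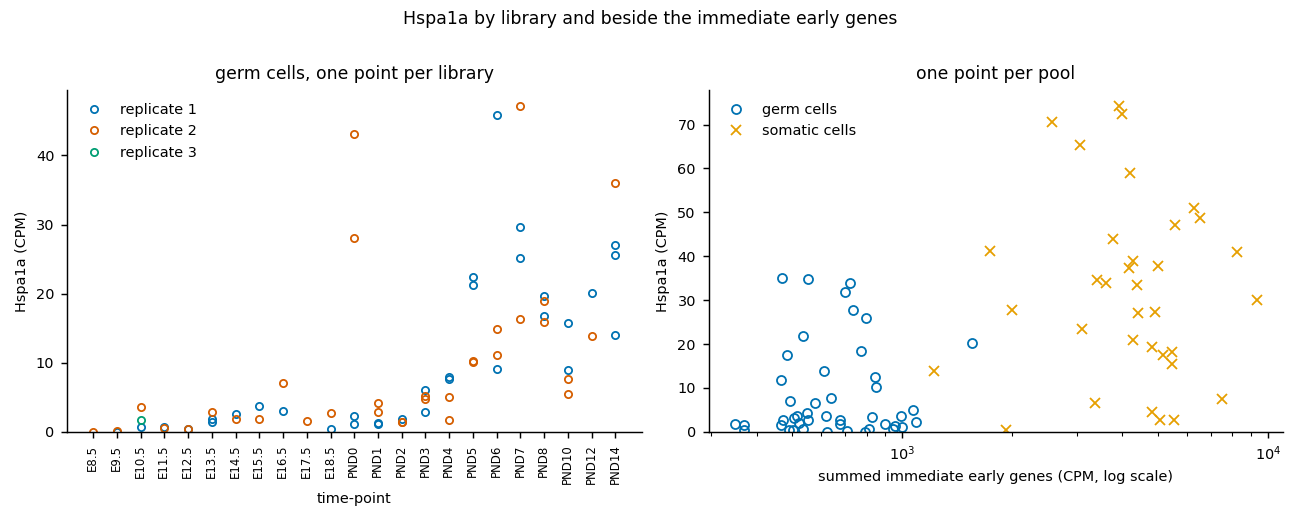
Left, Hspa1a CPM (vertical axis) of each library of germ-like cells by time-point, coloured by replicate. Right, Hspa1a CPM (vertical axis) against the summed CPM of 20 immediate early genes (horizontal log axis), with circles for germ cell sums and crosses for somatic sums. The libraries of PND0 replicate 2 stand at 28.01 and 43.1 CPM, above the 1.15 and 2.27 CPM of replicate 1.

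In the same comparison 16 of 22 endoplasmic reticulum genes were higher and 3 lower (median log2 difference 0.91, Manf 2.06 ± 0.16, Pdia4 1.95 ± 0.14), as were 9 of 10 chaperonins with none lower (Hspd1, the mitochondrial chaperonin, 1.45 ± 0.09), 11 of 18 HSP90 partners with 2 lower (Fkbp8 1.05 ± 0.10, Ptges3 0.94 ± 0.09), and 9 of 20 DNAJ genes with 2 lower (Dnajb3 3.15 ± 0.21). The median over all genes was -0.25. Among heat shock factors Hsf1 was at 1.45 ± 0.11 and its binding partner Hsbp1 at 1.598 ± 0.10. Small heat shock proteins were lower for 5 and higher for 2 of 9, with the lens and muscle chaperone Cryab at -3.31 ± 0.17. Of 20 immediate early genes 12 were higher and none lower, and their part in the changes of Hspa1a and Hspa1b was not tested.

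Meiotic cells were reached by setting the 4N-sorted cells of PND30 against the same spermatogonial pools. The 4N gate held 286 cells, of which 174 were spermatocyte-like, 69 in cluster 9 and 43 round spermatid-like. Of the 9 members 8 passed, 4 as higher and 4 as lower, where 75.8% of 22156 genes passed (39.6% as higher and 36.1% as lower). Age, sorting by DNA dye and stage cannot be told apart in this design. Hspa2 stood at 626 and 654 CPM against a spermatogonial median of 36.5, 23.2-fold higher (log2 4.54 ± 0.13, edgeR adjusted p = 9.65e-10). Hspa4l stood at 457 and 498 CPM against 74.2 (3.22 ± 0.14, adjusted p = 1.07e-08), and Hspa1l at 24.2 and 22.2 CPM against 3.44 (3.13 ± 0.52, adjusted p = 2.75e-04). In these 3 genes both 4N values lay above all 6 spermatogonial values. The share of all genes apart in this way was not counted. For Hspa1l, spermatocyte-like cells of PND30 to adult held 4.26 to 8.76 CPM, below both 4N values, and the highest spermatogonial pool held 8.25. Cluster 9 held 13.7 to 22.3 CPM of Hspa1l and round spermatid-like cells 24.5 to 114.7. The part of cluster 9 and round spermatid-like cells in the 4N level was not tested. Hsp90aa1 was at 1100 and 1391 CPM against 1003 (938 to 1153), with 1 of the 2 within the range (0.75 ± 0.11, adjusted p = 1.42e-04), and with limma its difference was 0.25 with adjusted p = 0.101.

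Hspa8 fell to 75.4 and 41.1 CPM from 637 (517 to 691), 7.69-fold lower (-2.94 ± 0.26, adjusted p = 2.27e-06), and Hsp90ab1 fell to 323 and 343 CPM from 873 (797 to 944) (-0.94 ± 0.11, adjusted p = 1.80e-05). Hspa1a was at 1.14 and 0.345 CPM against 24.8 (-4.38 ± 0.69, adjusted p = 1.78e-04). Hspa1b was called lower (adjusted p = 7.38e-05), with 3 and 0 UMIs in the 4N sums, too few for a fold change. Hspa5 was at 350.1 and 397 CPM, both below the median of 420.3, and its direction depended on scaling: the difference was 0.32 ± 0.14 (adjusted p = 0.0558) with TMM factors, -0.14 without them, -0.03 with upper-quartile scaling, -0.11 with limma and 0.55 with DESeq2, which called it (adjusted p = 0.00277). The immediate early genes summed to 59.7 to 84.3 CPM in 4N cells and 537 to 848 CPM in the spermatogonial pools, 16 of 20 being lower and 2 higher, and their part in the falls of Hspa1a and Hspa1b was not tested.

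The TMM factors shifted all genes by 0.46 on the log2 scale in this comparison. The split of 8784 higher and 8004 lower genes became 7683 and 9325 without them, 7897 and 9045 with upper-quartile scaling and 8075 and 8941 with limma. Among the other lists, none of the 21 DNAJ genes was lower and 16 were higher (median log2 difference 2.05 against 0.01 over all genes), led by Dnajb13, a component of the sperm tail (7.98 ± 0.35), and Dnajb14 (4.79 ± 0.26). The exchange factors Bag5 and Bag3 were at 3.60 ± 0.15 and 3.48 ± 0.17, with 6 of 11 of their list higher and 1 lower. Chaperonins split into 5 higher and 4 lower of 10: Cct6b, the testis copy of a subunit, was at 6.999 ± 0.30 and Hspd1 at -5.94 ± 0.36. HSP90 partners split into 8 higher and 9 lower of 18 (Fkbp6 -2.58 ± 0.14). Hsf5 (5.82 ± 0.21) and the small heat shock protein gene Hspb9 (7.35 ± 0.42), both known from testis, were higher, and Hspa14 was lower (-2.60 ± 0.11).

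The last comparison followed the same 2 PND30 pools from the 4N to the 1N gate, with 286 cells in each and the replicate as a block. Of the 1N cells 253 were round spermatid-like. The 2N gate held 277 cells, of which 177 were round spermatid-like, 85 in cluster 9 and 13 spermatocyte-like. Of the members 2 rose, 1 fell, 5 did not pass and Hspa1b was not tested, where 40.8% of 20269 genes passed (23.9% as higher and 16.9% as lower). With 2 pools and 2 residual degrees of freedom these calls are the least secure. Since edgeR moderates the spread over genes, these p-values rest mostly on all genes together and little on each gene's own 2 pools. Hspa1l was at 24.2 and 22.2 CPM in 4N, 59.4 and 45.1 in 2N and 65.4 and 103.2 in 1N cells, so that the gates did not overlap (1N against 4N 2.06 ± 0.40, edgeR adjusted p = 4.32e-06). The share of all genes without overlap between the gates was not counted. The part of the mixture of classes in each gate in these levels was not tested. Hspa8 was at 75.4 and 41.1 CPM in 4N, 38.97 and 54.2 in 2N and 27.9 and 18.03 in 1N cells (-1.13 ± 0.41, adjusted p = 0.0171), where both 1N values lay below all others. Hspa1a was at 1.14 and 0.345 CPM in 4N and 2.26 and 3.69 in 1N cells (2.47 ± 0.83, adjusted p = 0.0103). The 2 pools were far apart in this gene, with a difference of 1.06 in replicate 1 alone and 3.61 in replicate 2 alone, and it was 5.08 between 1N round spermatid-like and 4N spermatocyte-like cells. Between the same classes Hspa1l differed by 3.61. The 5.08 of Hspa1a is not a secure fold change. Cluster 34, with most of the spermatocyte-like cells of PND30, held 0.08 to 0.139 CPM of Hspa1a, at the level of a few UMIs per pool. Without the block only Hspa1l was called.

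Hspa2 did not differ detectably, with 626 and 654 CPM in 4N and 571 and 546.5 in 1N cells (-0.00 ± 0.24, adjusted p = 0.990). TMM moved this comparison by 0.19, and in CPM both 1N values were the lower. Hspa4l was at 457 and 498 CPM in 4N and 514 and 610.3 in 1N cells (adjusted p = 0.150). Hspa5 (350.1 and 397 against 326 and 183), Hsp90aa1 (1100 and 1391 against 894 and 945) and Hsp90ab1 (323 and 343 against 228 and 175) were lower in both pools and did not pass (adjusted p = 0.237, 0.358 and 0.113). Each of these genes was called lower with limma, and also between 1N round spermatid-like and 4N spermatocyte-like cells. Both HSP90 genes were called lower without TMM factors as well.
The endoplasmic reticulum list was lower for 10 and higher for 2 of 21 in 1N cells (median log2 difference -0.57 against 0.17 over all genes), with Hyou1 at -2.25 ± 0.42 and Calr3, a testis calreticulin, at 2.47 ± 0.38. The DNAJ list was higher for 8 and lower for 2 of 21 (Dnajc5b 2.66 ± 0.31, Dnajb7 2.54 ± 0.34), and the HSP90 partners lower for 4 and higher for 1 of 18 (Tomm34 -3.46 ± 0.41).

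**Figure D5:**
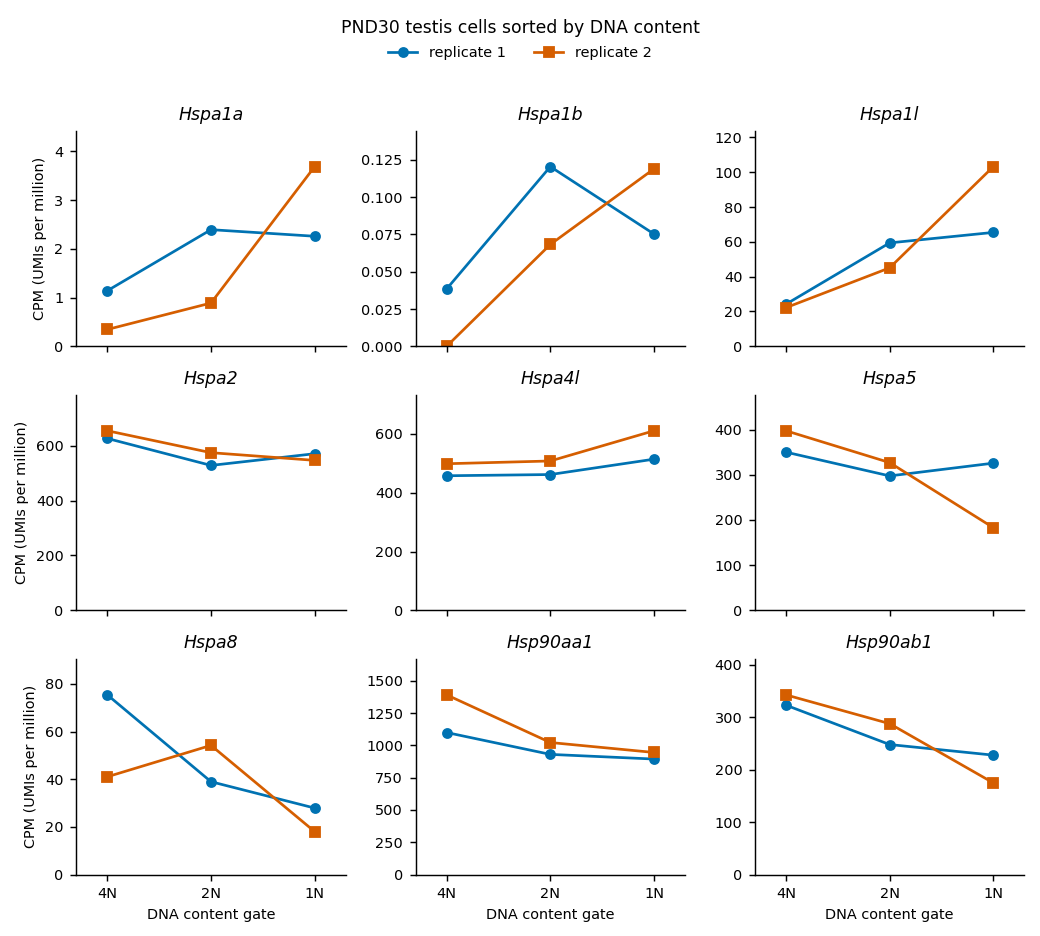
CPM of each gene (vertical axes) in the 4N, 2N and 1N gates of PND30 (horizontal axis), with blue circles for replicate 1 and orange squares for replicate 2. Hspa1l is higher in 1N than in 4N cells and Hspa8, Hspa5, Hsp90aa1 and Hsp90ab1 are lower, in both replicates.

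The later somatic levels of Hspa2 and Hspa4l stood beside germ cell markers. Somatic-like sums of PND10 to PND14 held 84.6 to 202 CPM of Hspa2 and 73.8 to 194 CPM of Hspa4l. The same sums held 298 to 761 CPM of spermatocyte markers, against 85.8 to 247 CPM at PND5 to PND8, where the somatic means were 37.3 ± 17.9 CPM (n = 7) for Hspa2 and 28.2 ± 11.4 CPM (n = 7) for Hspa4l. The part of these markers' cells in the somatic levels was not tested.

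Across 51 sums of germ cells and later classes, genes most like each member in log2(CPM + 1), among 11109 genes with a mean of at least 10 CPM, were found by Pearson's r as a description. These sums share libraries and depth by pool and follow 1 developmental axis. For Hspa2 they were Tcam1 (r = 0.97), Inpp5k (0.95) and Nemp1 (0.95), for Hspa4l Dnah14 (0.97), 4930504O13Rik (0.96) and Fam178b (0.96), and for Hspa1l Spata19 (0.91) and Sufu (0.90). Hspa8 had Rpl36a (0.97) and H2afv (0.97) among its nearest, and Hsp90ab1 the ribosomal protein genes Rpl19 (0.98), Rps10 (0.97) and Rpl3 (0.97). For Hsp90aa1 they were Mrps31 (0.85), the chaperonin subunit Cct4 (0.84) and Stip1 (0.83). Hspa5 had weaker ones, Ccdc115 (0.77), Iqcb1 (0.76) and Smdt1 (0.74), as had Hspa1a with Unc119b (0.81), Dnmt3b (0.78) and Large2 (0.78) and Hspa1b with Ctns (0.79), Btbd6 (0.78) and Cers6 (0.77).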

How the data were processed

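The deposited UMI counts per cell and gene were made by the authors from STRT-seq libraries enriched for 3′ ends, with CASAVA 1.8, UMI-tools, STAR and featureCounts against mm10. Time-point, replicate, genotype and gate came from the deposited table of cells, since the sample labels name only libraries. Cells with more than 2000 genes and 10000 to 1000000 UMIs were kept (11598 of 11896 wild-type cells), and 1136 knockout cells were not used. The 9 members and the gene lists were chosen with earlier results of these data known.

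Counts were summed per pool and gate or class (at least 10 cells). Clusters were made with scanpy 1.11.5 (1000 variable genes without members, lists and markers, 30 components, 20 neighbours, resolution 1). No doublet caller was run, since cells were picked singly, and all 96 cell barcodes recur in more than 1 library. Each comparison was an edgeR 4.0.16 quasi-likelihood test with TMM factors and filterByExpr, Benjamini-Hochberg adjusted over all genes tested, called at 0.05. The pool was a block between gates of the same pools. Replicate numbers across time-points were only numbers (correlations of deviations -0.042 to 0.035) and were used as a block only in an alternative. The code was tested on simulated data.

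The text names the 9 members in every comparison, of each list up to 2 called genes with the largest change (mean log2 CPM 5 or higher), and the 3 genes most like each member, of which some named by this rule are not reported here. Alternatives were DESeq2 1.42.0, limma 3.58.1 on log2 of the mean CPM of cells plus 1, upper-quartile scaling, no filter on genes or cells, 20 cells per sum, other clusters or gates, the block, each pool left out and, added after the data were seen, no TMM factors. A level of 3 UMIs was 0.0205 to 3.86 CPM over the sums, which covers counting error only.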

Additional observations from a re-analysis of the deposited data

Results flagged for a closer look

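Of 153 groups of 4 to 10 pools in which a member's level was tested for a pool apart, 19 had one, where chance gives about 1 in 20. The most marked in germ cells was Hspa1a in PND0 replicate 2, at 35.05 CPM beside a median of 1.63 in the other pools of E17.5 to PND1. Other high pools among germ cells were E16.5 replicate 2 for Hspa1a (7.11 CPM), PND6 replicate 1 for Hspa1l (8.25), and, for Hspa2, E13.5 replicate 1 (21.4), PND8 replicate 2 (68.7) and PND14 replicate 2 (213, a sum of 12 cells).

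Adult replicate 1 stood above the other spermatocyte-like pools of PND30 to adult in 5 members, with 8.55 CPM of Hspa1a, 1.598 of Hspa1b, 577 of Hspa5, 479 of Hspa8 and 687 of Hsp90ab1. Its spermatocyte-like cells made up 319 of the 321 cells of cluster 13, so that these values follow a cluster of 1 pool. In the same class PND30 replicate 2 was high for Hsp90aa1 (1515), and among those of PND10 to PND14 PND10 replicate 2 was high for Hspa8 (635).

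In somatic cells E16.5 replicate 1 was high for Hspa1b (11.9 CPM) and Hspa4l (25.03), E16.5 replicate 2 for Hspa5 (905), E17.5 replicate 1 for Hspa1l (11.97) and PND8 replicate 1 for Hspa1b (10.2), and E13.5 replicate 2 was low for Hspa5 (614). The germ to somatic difference of Hspa1b changed between E11.5 to E13.5 and E14.5 to E18.5 by 2.89 on the log2 scale in the edgeR interaction test (adjusted p = 0.0475).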

How the results depend on the processing

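Of 1098 recomputed member differences, 1001 kept their direction and call, 56 lost the call, 33 gained one, 5 values without a test moved and 3 reversed. The reversals were in the spermatogonial against perinatal comparison: Hspa5 at -0.068 and Hsp90aa1 at -0.23 with limma, and Hsp90aa1 at -0.28 without TMM factors. Of the other list genes named, Stip1 reversed there (-0.092 with limma, -0.085 without TMM factors). Genes called for gonadal against migrating cells went from 1407 to 2290 with DESeq2, and members called from 1 to 0 with the replicate number as a block. Members called in the 1N against 4N comparison were 3, and 6 with limma, 5 without TMM factors, 1 without the replicate block and 6 with gate and cluster. For the change of the germ to somatic difference, 3979 genes became 6179 with DESeq2 and 6974 with limma, and members called went from 1 to 2 in DESeq2, limma, upper-quartile scaling and without TMM factors.

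With each pool left out in turn, calls ranged from 8905 to 9324 for fetal germ against somatic cells (members 5 to 6), 701 to 1481 for gonadal against migrating (0 to 1), 8559 to 11426 for arrested against mitotic (5 to 8), 13504 to 14287 for spermatogonial against perinatal (5 to 7), 14921 to 16866 for 4N against spermatogonial (8 to 8) and 2833 to 4718 for the change (0 to 2). Leaving out a PND30 pool left no residual degrees of freedom in the 1N against 4N comparison. Same-numbered replicates shared only a number. The replicate block gave 1278, 9337, 14516 and 16607 calls in the comparisons between stages, and without it fetal germ against somatic cells gave 8980 and 1N against 4N 5874. Without mitochondrial and ribosomal protein genes, 171 mean levels rose 1.02 to 1.105 times. The alternative with all cells of the table was not run for the spermatogonial comparison. The cause of these changes was not tested.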

Other observations

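Some list results were not given above. Between gonadal and migrating germ cells few chaperone genes passed: 2 of 11 exchange factors and partners were lower (Bag3 -0.94 ± 0.24, edgeR adjusted p = 0.0248), 2 of 5 small heat shock proteins were lower (Hspb1 -1.60 ± 0.31, adjusted p = 0.00643), and of 17 HSP90 partners Fkbp6 was higher (1.29 ± 0.28, adjusted p = 0.0119) and Ppp5c lower (-0.59 ± 0.11, adjusted p = 0.00466). Of all genes tested there, 4.09% passed as higher and 5.39% as lower. In the arrested cells 3 of 10 chaperonins were lower and none higher (Hspd1 -1.47 ± 0.25), and 4 of 7 small heat shock proteins were higher and none lower (Hspb11 0.83 ± 0.15). Of all genes tested in this comparison, 32.6% passed as higher and 24.3% as lower, so that 3 of 10 lower is close to the background. The split depended on scaling, as given above.

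In the test of change with fetal age, germ cells moved down relative to somatic cells for 6 of 22 endoplasmic reticulum genes and up for 1 (Manf -1.87 ± 0.44, Dnajb9 1.59 ± 0.27). They moved down for 4 of 18 HSP90 partners and up for none (Sugt1 -1.18 ± 0.34, Ppp5c -1.07 ± 0.30). These are signed changes, so a move down can widen or narrow a gap. Of all genes tested 8.86% passed as higher and 11.1% as lower, a split that depended on scaling as given above. In 1N against 4N cells Hsf2 was higher (1.56 ± 0.41) and Hsf5 lower (-1.07 ± 0.34), and the small subunit of the mitochondrial chaperonin, Hspe1, was higher (1.56 ± 0.42).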
